A study of Homo sapiens with 2 samples.

Results

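The genes described here are 41 members of the endoplasmic reticulum (ER) and amino acid stress response, taken from a list of gene names drawn up with earlier results of these data known. They fall into 23 genes of the ATF4 and amino acid branch and 18 genes of the ER chaperone and degradation branch. Of the 41 genes, 40 had at least 1 probe set naming no other gene, out of 19775 such genes on the array. All cells were HT-29, an established human colorectal adenocarcinoma line, and RNA was taken 72 h after siRNA transfection. The siIFITM1 sample received siRNA against human IFITM1, which encodes an interferon-induced membrane protein, and the siLuc sample received siRNA against firefly luciferase, a gene these cells lack. Each group was 1 sample on 1 single-colour array, so there is no spread between replicates and the comparison was described without a test. A knockdown of this kind is not a deletion, and an effect of IFITM1 loss cannot be told apart from other effects of that siRNA or from a difference between 2 cultures.

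The values are MAS5 signals, which are probe set summaries on a linear scale. The log2 ratio is siIFITM1 over siLuc, so a negative value means a lower signal in siIFITM1 cells. A gene passed the filter if its main probe set, which is its brightest when both arrays are averaged on the log2 scale, had a mean signal of at least 57.4, the median of the non-control probe sets. Genes with a mean of at least 393, the 75th percentile, are called brighter and the other genes past the filter dimmer. The signal of IFITM1 itself was 237 in siIFITM1 cells and 640 in siLuc cells, or 37.1% of the siLuc signal. IFITM1 was a dimmer gene, read by a single probe set that names no other gene. The ID ending of that probe set (_s_at) marks probes shared between transcripts. The epithelial markers fitted the labelled line in part, with 10 of 12 past the filter, while CDX1 and CDX2 were below it. Summed signals over all 12 were 182389 in siIFITM1 cells and 179267 in siLuc cells. Of 6 leukocyte markers 3 passed the filter (CD79A, CD14 and LYZ, the last a brighter gene), and PTPRC and CD3E did not. Summed signals over the measured leukocyte markers were 21066 in siIFITM1 cells and 24582 in siLuc cells. Most of both sums came from LYZ, at 20613.7 in siIFITM1 cells and 23963.5 in siLuc cells. Of 8 fibroblast and endothelial markers 4 passed, none of them brighter. Sums over all 8 were 909 in siIFITM1 cells and 775 in siLuc cells. LUM read 386 in siIFITM1 cells and 132 in siLuc cells, while the other markers that passed (COL1A1, DCN and PECAM1) were lower in siIFITM1 cells. The part of these markers in the results below was not tested.

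The stress response couples protein synthesis to the supply of amino acids and to the folding capacity of the ER. The sensors PERK (EIF2AK3), IRE1 (ERN1) and ATF6 sit in the ER membrane and respond to unfolded proteins. PERK and the amino acid sensor kinase GCN2 phosphorylate the translation factor eIF2, which slows general translation and favours translation of ATF4, a transcription factor that induces amino acid transporters and biosynthetic enzymes. IRE1 splices the mRNA of XBP1, and XBP1 and ATF6 induce chaperones and the machinery that removes misfolded proteins. In the intestinal epithelium the ER branch carries the secretory load of mucus-producing cells.

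The factors of the branches act at different promoter elements, which are shown where they were found in members. ATF4 acts with C/EBP proteins at the CARE element, searched here as TGATGNAA. ATF6 and XBP1 act at the ER stress elements ERSE, searched as CCAAT and CCACG with 9 bases of any kind between them, and ERSE-II, searched as ATTGG and CCACG with 1 base of any kind between them, and XBP1 also at the UPRE, searched as TGACGTGG. Both strands of RefSeq promoter windows of GRCh38.p14 were searched, each running over 250 bases before and 50 bases after a gene start. The table held 35116 windows and matched 36 of the 41 members by symbol, 18 in each branch, with 52 windows in all because some genes have several starts. PSPH, ALDH1L2, SHMT2, NUPR1 and SLC7A11 were not among them. The shares over all windows given below count windows, while members are counted as genes with a match in any of their windows. These are unlike units, since a gene with several starts has more windows in which a match can fall.

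CARE was found in 3.62% of all windows. It occurred in 5 of 18 ATF4 branch genes (ASNS, CHAC1, CEBPG, SLC1A5 and SLC3A2) and in 1 of 18 ER branch genes, HERPUD1. The stretches around 4 of these matches are given 5′ to 3′ along the gene, with the match in capitals. CHAC1 holds it on the opposite strand, so its capitals spell the reverse complement. The SLC3A2 match lies after the gene start and is not printed.
ASNS (chr7:97872449-97872496, minus strand): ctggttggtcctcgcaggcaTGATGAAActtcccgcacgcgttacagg
CHAC1 (chr15:40953242-40953289, plus strand): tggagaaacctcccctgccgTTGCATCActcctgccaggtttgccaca
CEBPG (chr19:33374051-33374098, plus strand): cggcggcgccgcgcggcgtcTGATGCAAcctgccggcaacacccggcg
SLC1A5 (chr19:46784884-46784931, minus strand): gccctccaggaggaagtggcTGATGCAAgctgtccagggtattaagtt

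ERSE was found in 0.0769% of all windows and ERSE-II in 0.0541%. In the ER branch ERSE occurred in 5 of 18 genes (HSPA5, HSP90B1, PDIA6, XBP1 and CRELD2) and ERSE-II in 3 of 18 (HERPUD1, HYOU1 and SDF2L1), and neither was found in the 18 ATF4 branch genes. UPRE was found in 0.729% of windows and in 1 member, HYOU1, where it overlaps an ERSE-II match on the other strand. HERPUD1 held both a CARE match, on the opposite strand, and an ERSE-II match, and is shown for that reason. CARE was found in 1 of 18 ER branch genes, against 3.62% of all windows, so this match is near the background share. A match is a run of letters and does not show binding.
HSPA5 (chr9:125241371-125241429, minus strand): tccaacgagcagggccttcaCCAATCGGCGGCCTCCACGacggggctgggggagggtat
PDIA6 (chr2:10812833-10812891, minus strand): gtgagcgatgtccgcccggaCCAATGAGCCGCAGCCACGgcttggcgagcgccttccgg
XBP1 (chr22:28800583-28800641, minus strand): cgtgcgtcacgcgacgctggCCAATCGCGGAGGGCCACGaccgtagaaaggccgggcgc
HERPUD1 (chr16:56931946-56932055, plus strand): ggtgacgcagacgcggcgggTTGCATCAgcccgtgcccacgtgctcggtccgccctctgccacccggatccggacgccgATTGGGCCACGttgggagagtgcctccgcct

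Signals of the stress response were mostly lower in siIFITM1 cells by small amounts, and more so in the ATF4 branch. In bulk RNA, fewer cells that express a gene and less of its RNA per cell cannot be told apart. In all 39 members past the filter both arrays were above its floor, so no main value rested on a signal at background level by that measure. Of these 39, 31 had a log2 ratio below 0, against 52.6% of all 12225 genes past the filter and 49.5% of the 7793 brighter genes. In the ATF4 branch 19 of 22 genes were below 0, with a median of -0.26 and middle values from -0.38 to -0.13 (25th to 75th percentile). In the ER branch 12 of 17 were below 0, with a median of -0.12 (-0.24 to 0.05). The median was -0.02 over all genes past the filter and 0.00 over brighter genes.

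No replicate error exists, so the yardstick was how far several probe sets for a single gene differed in log2 ratio on these arrays, an SD of 0.193 for brighter and 0.496 for dimmer probe sets. All members past the filter were brighter genes except NUPR1 and VLDLR. Of the 39 genes, 20 were lower by at least 0.193 and 3 were higher by as much, against 27.5% and 22.5% of all genes past the filter and 19.2% and 20.2% of brighter genes. The ATF4 branch held 14 of the lower genes (of 22) and 1 of the higher, ATF5. The ER branch held 6 of the lower genes (of 17) and 2 of the higher, ATF6 and DNAJB9. These counts use main probe sets only, and ATF5, ATF6, ERN1 and DNAJC3 among them had probe sets of both signs. Among the 1692 genes whose signal was at or above the members' median of 4019, 11.8% were lower and 11.6% higher by that SD, and their median was -0.01.

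Large differences were few. At least 1.5-fold lower were 2 members, NUPR1 and DDIT4, and 0 were 1.5-fold higher, against 7.34% lower and 4.18% higher over all genes past the filter and 1.77% and 1.86% of brighter genes. Only NUPR1 was at least 2-fold lower and 0 members were 2-fold higher, where 2.01% and 1.01% of all genes past the filter (0.0898% and 0.18% of brighter genes) were past that line. The count of 2 is therefore 2 of 39 members, close to the background share. Most of the members below 0 thus differed by less than 1.5-fold.

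**Figure D1:**
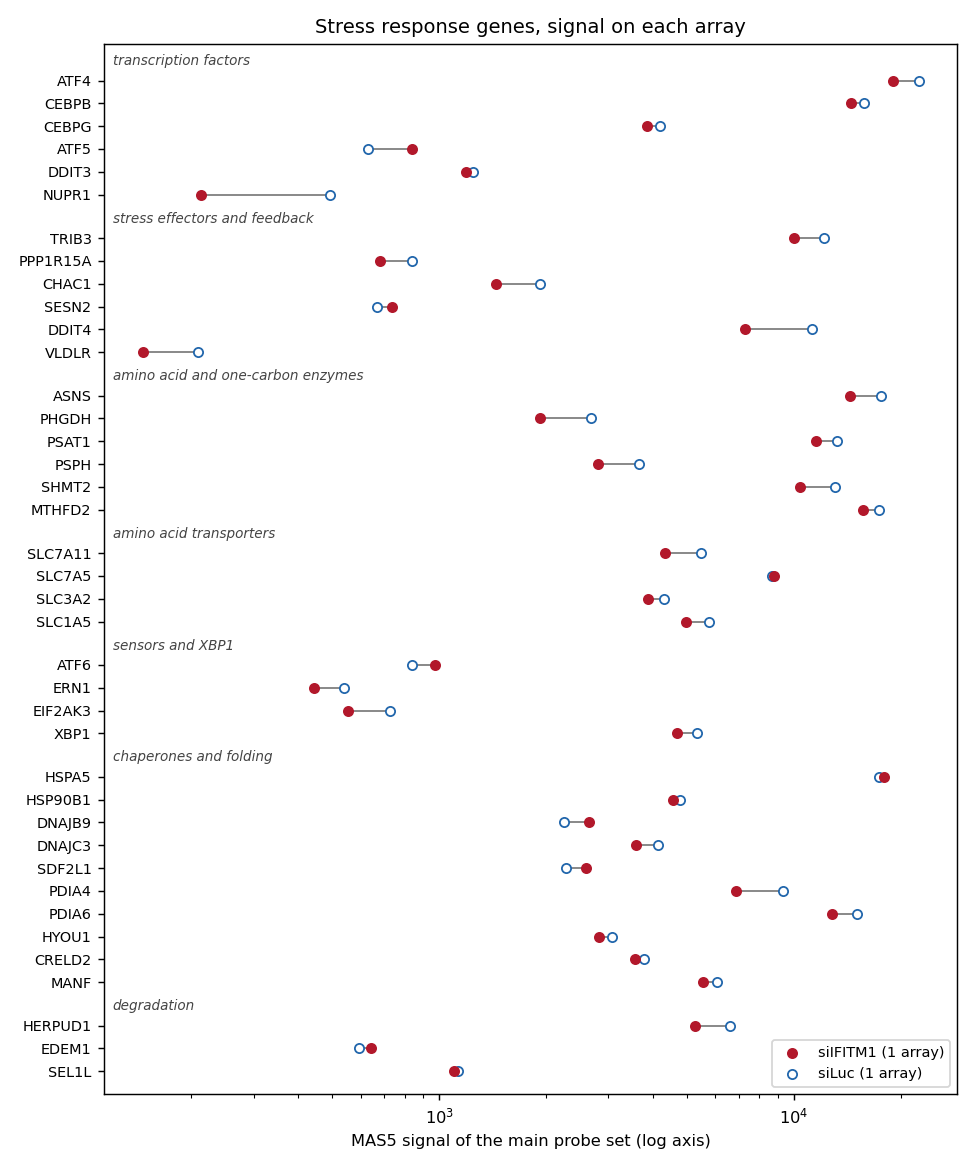
MAS5 signal of the main probe set on the siIFITM1 array (filled red) and the siLuc array (open blue) for the 39 members past the filter, on a log axis, grouped by role. The red point lies left of the blue point in 31 of 39 genes, and the gap is widest for NUPR1 (213 and 492).

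The transcription factors of the ATF4 branch differed little at their main probe sets apart from NUPR1 and ATF5. ATF4, the factor that leads the response, had a signal of 18999.6 in siIFITM1 cells and 22497 in siLuc cells, a log2 ratio of -0.24. CEBPB, a C/EBP protein that pairs with ATF4, read 14499 in siIFITM1 cells and 15740.2 in siLuc cells (-0.12). CEBPG, another such partner, read 3849 in siIFITM1 cells and 4196 in siLuc cells (-0.12), and its other probe set was at 0.05. DDIT3, which encodes the pro-apoptotic factor CHOP, read 1190.3 with siIFITM1 and 1246 with siLuc (-0.07). Of these 4 factors, ATF4 alone was past the SD of 0.193 between probe sets of a brighter gene.

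NUPR1, a small stress-induced chromatin protein, had the lowest ratio of the members, with 213 in siIFITM1 cells and 492 in siLuc cells (-1.21). It was a dimmer gene read by 1 probe set, whose ID ending (_s_at) marks probes shared between transcripts. Its ratio was past the dimmer SD of 0.496, and 3.0% of dimmer genes had a ratio as low. ATF5, an ATF4-related factor, went the other way at its main probe set, with 841 in siIFITM1 cells and 629 in siLuc cells (0.42). Its 4 probe sets did not agree in sign, at 0.42, -0.36, -0.69 and 0.53, so no direction is given for ATF5.

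Genes that act on signalling or feed back on the response were lower in 5 of 6 cases, where 52.6% of all genes past the filter were below 0. DDIT4, an inhibitor of mTORC1 signalling, read 7288 in siIFITM1 cells and 11228 in siLuc cells (-0.62), and 1.49% of brighter genes had a ratio as low. CHAC1, which degrades glutathione, read 1448 in siIFITM1 cells and 1926 in siLuc cells (-0.41), and 5.40% of brighter genes had a ratio as low. TRIB3, a pseudokinase that restrains ATF4 and AKT, read 9989 with siIFITM1 and 12176 with siLuc (-0.29). Both TRIB3 probe sets were lower, the other by 0.45. PPP1R15A, which encodes GADD34, the phosphatase subunit that reverses eIF2 phosphorylation, read 683 in siIFITM1 cells and 839.6 in siLuc cells (-0.30), with its other probe set at -0.17.

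The lipoprotein receptor gene VLDLR read 146 in siIFITM1 cells and 209 in siLuc cells (-0.52). This dimmer gene was read by 1 probe set and lay about 1 SD (0.496) below 0, and 20.3% of dimmer genes were as low. SESN2, a leucine sensor upstream of mTORC1, was the exception in this role, with 735 in siIFITM1 cells and 666 in siLuc cells (0.14), and 0.06 at its other probe set. Both SESN2 ratios were inside the SD of 0.193. DDIT4 and VLDLR, like NUPR1, were read by a single probe set with an _s_at ending.

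All 6 enzymes of amino acid and one-carbon synthesis past the filter were lower, with a median of -0.31. Over all genes past the filter, 52.6% were below 0. PHGDH, which starts serine synthesis, read 1924 in siIFITM1 cells and 2688 in siLuc cells (-0.48), and 3.41% of brighter genes were as low. PSAT1, the aminotransferase of the next step, read 11526 in siIFITM1 cells and 13256 in siLuc cells (-0.20). Its other probe set was lower by more, at -0.51. PSPH, the phosphatase that completes serine synthesis, read 2801 with siIFITM1 and 3667 with siLuc (-0.39), and -0.33 at its other probe set past the filter. The serine pathway was thus lower at each step and at each of its 5 probe sets past the filter. A further probe set that names PHGDH together with MZT2A and MZT2B was at -0.25.

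SHMT2, the mitochondrial enzyme that moves a carbon unit from serine to folate, was measured by the most closely agreeing probe sets. The main one read 10405 in siIFITM1 cells and 13106 in siLuc cells (-0.33), and the other 2 were both at -0.35. MTHFD2, the mitochondrial folate dehydrogenase, read 15662 with siIFITM1 and 17402 with siLuc (-0.15), and -0.27 at its second probe set. ASNS, asparagine synthetase and a standard reporter of ATF4 activity, read 14401 in siIFITM1 cells and 17584 in siLuc cells (-0.29). A second ASNS probe set, below the filter, read 54.6 with siIFITM1 and 3.0 with siLuc, the opposite direction at signals below the floor of 57.4. ALDH1L2, a mitochondrial folate enzyme, did not pass the filter, with 15.2 in siIFITM1 cells and 10.1 in siLuc cells, and no ratio is read from it.

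The 4 amino acid transporters differed less evenly. SLC7A11, the light chain of the cystine and glutamate exchanger, read 4338 in siIFITM1 cells and 5469 in siLuc cells (-0.33). All 3 of its probe sets were lower, the others at -0.15 and -0.76. The glutamine transporter gene SLC1A5 read 4973 with siIFITM1 and 5782 with siLuc (-0.22). SLC3A2, the heavy chain shared by several exchangers, read 3879 with siIFITM1 and 4300.0 with siLuc (-0.15), inside the SD. SLC7A5, the leucine transporter chain that pairs with SLC3A2, read 8767 in siIFITM1 cells and 8699 in siLuc cells (0.01), so the chains of that heterodimer showed no shared difference past the SD.

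**Figure D2:**
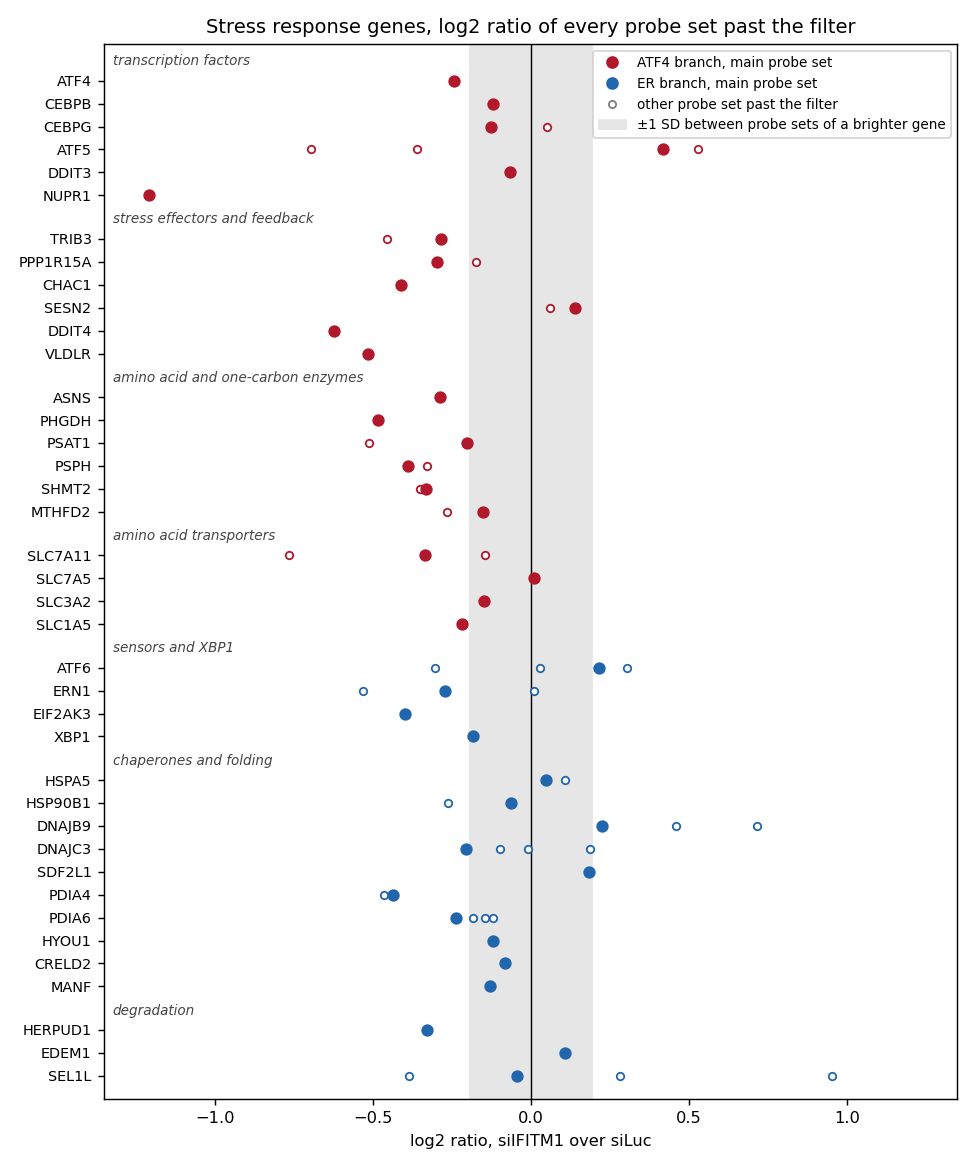
Log2 ratio, siIFITM1 over siLuc, of all 72 probe sets past the filter that name 1 member, grouped by role. Filled points are main probe sets, open points are further probe sets, and the grey band is ±0.193, the SD between probe sets of a brighter gene. Serine and one-carbon genes lie left of 0 at every probe set, while ATF5, ATF6 and SEL1L spread to both sides.

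In the ER branch the sensors did not move together. EIF2AK3 (PERK), whose kinase activity raises ATF4 translation, read 553 in siIFITM1 cells and 728 in siLuc cells (-0.40), and 5.99% of brighter genes had a ratio as low. ERN1 (IRE1) read 445 with siIFITM1 and 537 with siLuc (-0.27), but its other probe sets were at 0.01 and -0.53. ATF6 read 972 with siIFITM1 and 837 with siLuc (0.22), and its 4 probe sets ran from -0.30 to 0.30. The direction of ERN1 and ATF6 therefore depends on the probe set. XBP1 read 4685 in siIFITM1 cells and 5317 in siLuc cells (-0.18), within the SD, and the array does not separate its spliced and unspliced mRNA.

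Chaperones and folding enzymes were mixed, with a median of -0.10. Of these genes 7 of 10 were below 0, against 52.6% of all genes past the filter. HSPA5, the chaperone BiP and the usual readout of ER stress, read 17925 in siIFITM1 cells and 17334 in siLuc cells (0.05), and its other probe set was at 0.11. HSP90B1, the chaperone GRP94, was at -0.06 and -0.26 at the probe sets that name it alone. Another probe set, annotated to both HSP90B1 and a microRNA gene, read 15800 with siIFITM1 and 14246 with siLuc (0.15), and the other of that annotation was at -0.21. Neither of these main ER chaperones differed by more than the SD at its main probe set.

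Disulfide isomerases were the lowest of the folding genes. PDIA4 read 6892 in siIFITM1 cells and 9324 in siLuc cells (-0.44), and its other probe set was at -0.47. A main ratio as low was found in 4.66% of brighter genes. PDIA6 read 12811 with siIFITM1 and 15097 with siLuc (-0.24), and all 4 of its probe sets were lower, between -0.24 and -0.12. DNAJC3, a co-chaperone that also inhibits eIF2 kinases, read 3593 with siIFITM1 and 4138 with siLuc (-0.20), but its 4 probe sets reached 0.19. The chaperone HYOU1 (-0.12), CRELD2 (-0.08) and the secreted factor MANF (-0.13) each lay inside the SD.

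DNAJB9, an ER co-chaperone and a known target of the IRE1 and XBP1 arm, went the other way. It read 2637 in siIFITM1 cells and 2255 in siLuc cells (0.23), and its other probe sets were higher still, at 0.72 (865 with siIFITM1 and 527 with siLuc) and 0.46 (476 with siIFITM1 and 346 with siLuc). SDF2L1, another ER co-chaperone, read 2588 with siIFITM1 and 2279 with siLuc (0.18), just inside the SD. DNAJB9 was the member with the clearest higher signal, since its 3 probe sets shared 1 direction.

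Degradation genes had no common direction. HERPUD1 recruits the degradation machinery, and its promoter window held the CARE and ERSE-II matches shown above. It read 5271 in siIFITM1 cells and 6626 in siLuc cells (-0.33), and 8.69% of brighter genes were as low. EDEM1, a lectin-like factor that picks misfolded glycoproteins, read 643 with siIFITM1 and 596 with siLuc (0.11). SEL1L, the scaffold of the ubiquitin ligase complex, was at -0.04 at its main probe set, and its 4 probe sets ran from -0.39 to 0.95. SYVN1, the ligase of that complex, had no probe set of its own, and the one that also names a microRNA gene read 1079 with siIFITM1 and 1091 with siLuc (-0.02).

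Agreement between probe sets followed the same division. Of 19 members with several probe sets past the filter, 10 were lower at all of them and 3 were higher at all of them, against 25.8% and 22.6% of the 6087 genes on the array with several. In the ATF4 branch 7 of 10 such genes were lower throughout and in the ER branch 3 of 9. Counted by probe set, 30 of 36 were below 0 in the ATF4 branch and 22 of 36 in the ER branch, where 11990 of 23024 were below 0 over all probe sets past the filter that name 1 gene. Probe sets of 1 gene share the same RNA and are not replicates.

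**Figure D3:**
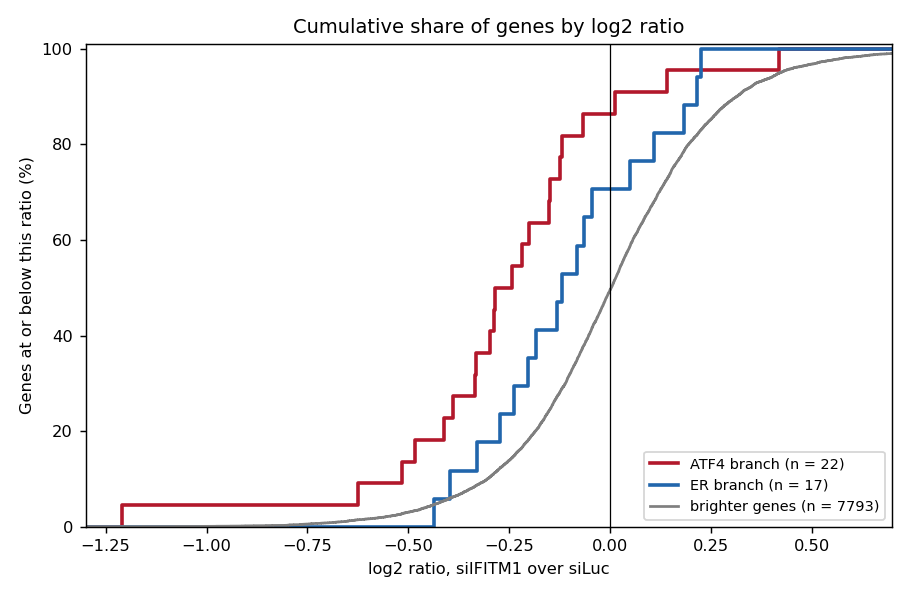
Cumulative share of genes (vertical axis, percent) at or below each log2 ratio, siIFITM1 over siLuc, for 22 ATF4 branch genes (red), 17 ER branch genes (blue) and the 7793 brighter genes (grey). The red curve lies left of the blue curve over most of its range, with medians of -0.26 and -0.12, and the grey curve crosses 50% at 0.00.

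The difference between the branch medians was -0.14 (ATF4 branch minus ER branch). With 1 array per siRNA, this difference has no error between samples and was not tested. RNA quality was close, since the 3′ signal over the 5′ signal, as log2, was -0.11 in siIFITM1 and -0.13 in siLuc for GAPDH, and 0.13 in siIFITM1 and 0.12 in siLuc for beta-actin. Control probe sets also read slightly lower on the siIFITM1 array, with a median log2 ratio of -0.07 over 18 hybridisation probe sets. The median was -0.11 over 24 probe sets with poly-A control names (range -0.38 to 0.35). The ER branch median was about as low as these controls and the ATF4 branch median lower. The part of labelling or hybridisation in either was not tested. Subtracting the loess trend of ratio on signal, whose median over the members was -0.0033, left medians of -0.24 for the ATF4 branch and -0.13 for the ER branch.

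The genes with a promoter match had these ratios. The 5 ATF4 branch genes with CARE were all below 0, between -0.41 (CHAC1) and -0.12 (CEBPG), and HERPUD1 was at -0.33. The 5 genes with ERSE lay between -0.24 (PDIA6) and 0.05 (HSPA5). Among the 3 genes with ERSE-II, HERPUD1 was at -0.33, HYOU1 at -0.12 and SDF2L1 at 0.18. With so few genes this is a description only.

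Other genes of the pathway were taken from 9 lists drawn from textbook knowledge with earlier results of these data known. For comparison with every list, 52.6% of all genes past the filter were below 0. By the SD of 0.193, 27.5% were lower and 22.5% higher. Among brighter genes these shares were 49.5%, 19.2% and 20.2%. Among further genes listed as ATF4 or stress targets, 13 of 19 past the filter were below 0, with a median of -0.21. By the SD, 10 were lower and 2 higher, the latter ATF3 (0.33) and CDKN1A (0.28) at their main probe sets. PCK2, the mitochondrial PEP carboxykinase, read 1749.8 in siIFITM1 cells and 2523 in siLuc cells (-0.53). PYCR1, of proline synthesis, read 1539 with siIFITM1 and 2088 with siLuc (-0.44). GDF15, a secreted stress cytokine, read 5864 with siIFITM1 and 8035 with siLuc (-0.45). TXNIP, a thioredoxin-binding protein that is also controlled by glucose-responsive factors, read 1603 with siIFITM1 and 3019 with siLuc (-0.91). FGF21, a stress hormone, was a dimmer gene with 74.1 in siIFITM1 cells and 115 in siLuc cells (-0.63).

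The cytosolic aminoacyl-tRNA synthetases, several of which are also ATF4 targets, were about evenly split. Of 17 past the filter 9 were below 0, and the median was -0.01. SARS1, for serine, was at -0.25 and FARSB, for phenylalanine, at 0.22. RARS1, for arginine, read 7188 in siIFITM1 cells and 4512 in siLuc cells (0.67). The other serine, glycine and folate enzymes had a median of -0.06 over 10 genes, 6 of them below 0, and the named ones were dimmer genes. No direction is given for this list, since its median was 0.10 without shared probe sets and -0.18 with the mean over probe sets. FTCD read 63.3 with siIFITM1 and 168 with siLuc (-1.41), ALDH1L1 was at 0.80 and SHMT1, the cytosolic relative of SHMT2, read 239 with siIFITM1 and 356 with siLuc (-0.58).

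Upstream of ATF4, genes of the eIF2 kinases, eIF2, its exchange factor eIF2B and related factors were above 0 in 11 of 15 cases, with a median of 0.05. The other 4 were below 0, against 52.6% of all genes past the filter. With the mean over probe sets, and also with the median over those past the filter, 6 were below 0 and the list median was 0.01. EIF2S1, the subunit that is phosphorylated under stress, read 7306 in siIFITM1 cells and 5626 in siLuc cells (0.38). EIF2B3 and the phosphatase subunit gene PPP1R15B were both at 0.25. Of this group 5 genes were higher and 1 lower by the SD, against 22.5% and 27.5% of all genes past the filter. The related kinase gene EIF2AK3 was lower.

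Among further ER genes, other chaperones and folding enzymes had a median of -0.10 with 19 of 23 below 0, and 7 were lower and 2 higher by the SD. PRKCSH, a glucosidase subunit, read 1826 in siIFITM1 cells and 2520 in siLuc cells (-0.46), and the dimmer genes SIL1 and FKBP7 were at -0.62 and -0.47. Among other degradation genes 14 of 21 were below 0 and the median was -0.06, but 9 were below 0 and the median was 0.08 when all probe sets of a gene were averaged, so no direction is given. MAN1B1 (-0.40) and EDEM2 (-0.32) were lower and RNF139 (0.42) was higher. The proteases that activate ATF6 in the Golgi and the related CREB3 factors had 6 of 7 below 0 and a median of -0.26. CREB3L1, an ER-anchored factor of secretory cells, read 987 with siIFITM1 and 1598 with siLuc (-0.69), CREB3L4 was at -0.33 and CREB3L2 at -0.27.

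**Figure D4:**
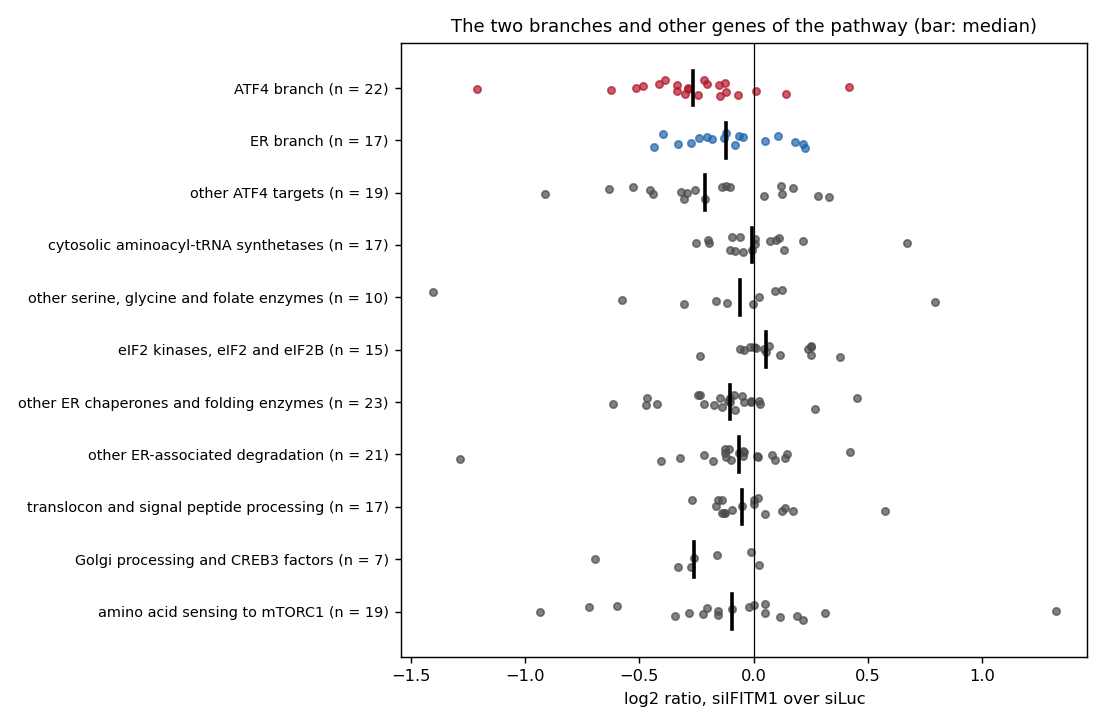
Log2 ratio, siIFITM1 over siLuc, of the genes past the filter in the ATF4 branch (red), the ER branch (blue) and 9 further lists (grey), with a black bar at each median. The ATF4 branch, the other ATF4 targets and the CREB3 group have medians of -0.26, -0.21 and -0.26, and the tRNA synthetases sit at -0.01.

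The branch medians kept their sign and their order under each of the 10 whole-table processing choices shown in the plot of medians by setting. Without probe sets that share probes between transcripts, 13 ATF4 branch genes remained and all 13 were below 0 (median -0.29), and 8 of 12 ER branch genes were below 0 (median -0.14). NUPR1, DDIT4, VLDLR, ASNS, PSAT1 and SLC3A2, all below 0 at their main probe set, dropped out of that count. So did ATF5, SESN2 and SLC7A5, the ATF4 branch genes above 0 at their main probe set. None of the 13 that remained had thus been above 0 as reported.

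**Figure D5:**
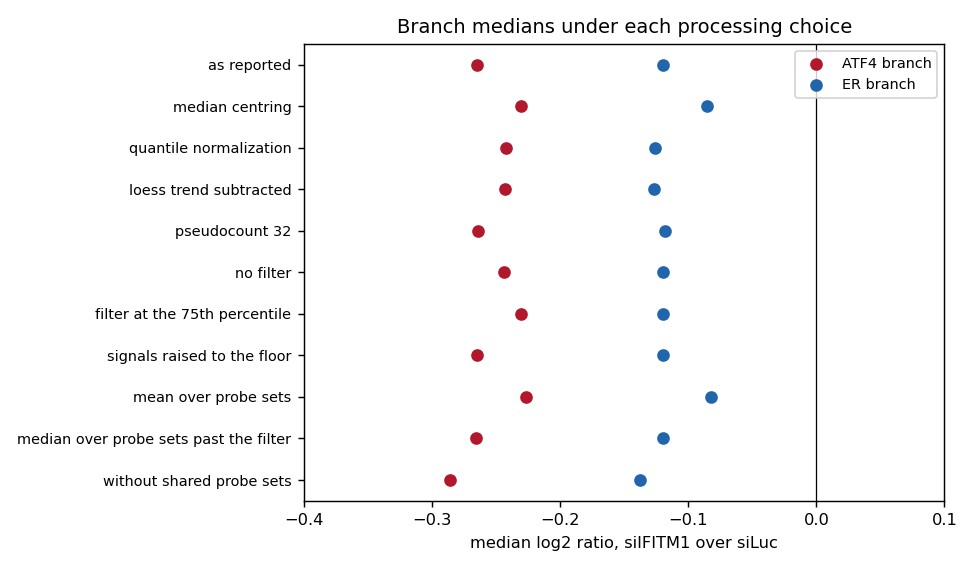
Median log2 ratio, siIFITM1 over siLuc, of the ATF4 branch (red) and the ER branch (blue) as reported and under 10 alternative processing choices. The red points lie between -0.29 and -0.23 and the blue points between -0.14 and -0.08.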

How the data were processed

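Per the labels' protocols, total RNA of 1 siIFITM1 and 1 siLuc sample was amplified to biotin-labelled cRNA. The authors deposited MAS5 signals (intensity, linear scale), per the submitters' processing notes; which MAS5 version was used is not stated in the labels. The mean signal after trimming 2% of probe sets at each end was 500.1 on both arrays, so they had been scaled. Of 54613 probe sets that are not controls, 41091 named 1 gene, 1801 several and 11721 none. Symbols were updated through a RefSeq table of GRCh38.p14, which matched 41037. Log2 ratios were taken as deposited, with no further scaling. No detection call was used. Precision is limited by the number of arrays.

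The members and lists were chosen with earlier results of these data known. All members could be named. From each other list up to 3 genes past the filter (5 for ATF4 targets) with the largest absolute ratio and 1 sign over probe sets past the filter were named. ATF3 and CDKN1A were named in addition, as the other ATF4 targets that were higher by the SD. The SD threshold was added after the values were seen. Alternatives were median centring, quantile normalization, a loess trend (span 0.3), a pseudocount of 32, other filters, floors and probe set choices. The calculation was tested on simulated data. Python 3.11.15, numpy 2.4.6, pandas 2.3.3, scipy 1.17.1, statsmodels 0.14.6 and matplotlib 3.10.9 were used.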

Additional observations from a re-analysis of the deposited data

Results flagged for a closer look

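Of 12 probe sets that name a member and entered no main value or count of the members (8 below the filter and 4 naming several genes), 1 was both above the floor of 57.4 in siIFITM1 cells and at least 2-fold above siLuc. This PSPH probe set read 85.3 in siIFITM1 cells and 35.1 in siLuc cells (log2 ratio 1.28). Its ID ending (_x_at) marks probes that can bind other transcripts, and the 2 brighter PSPH probe sets were lower, at -0.39 and -0.33.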

How the results depend on the processing

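The ATF4 branch median ran from -0.29 to -0.23, the ER branch median from -0.14 to -0.08 and their difference from -0.16 to -0.11 over all alternatives, including those without NUPR1 and DDIT4, without the 3 sensors and, added after the data were seen, with HSP90B1 and SYVN1 read by probe sets that name several genes. Of 22 ATF4 branch genes 17 were lower under every whole-table alternative that kept them, 1 (SESN2) was higher and 4 changed sign. Of 17 ER branch genes 10 were lower throughout, 5 higher and 2 changed sign. With the mean over all probe sets, ASNS was at 1.95, PSPH at 0.19 and HERPUD1 at 0.39, each with a probe set below the filter in that mean. SEL1L was at 0.20 and ATF5 at -0.03, where all 4 probe sets of each passed the filter.

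Counts at large folds depended on the settings. Members at least 1.5-fold lower numbered 1 with the filter at the 75th percentile, which removed NUPR1. They numbered 0 without shared probe sets, because NUPR1 and DDIT4 were each read only by a shared probe set. Members 2-fold lower numbered 0 under both and 0 at 3-fold. Members 1.5-fold higher numbered 1 with no filter (ALDH1L2), 1 with the mean over probe sets (ASNS, also the 1 that was 2-fold higher) and 1 without shared probe sets (DNAJB9). Without shared probe sets 25 members passed the filter. Over all genes past the filter, the shares 1.5-fold lower and higher were 17.98% and 14.2% with no filter and 1.77% and 1.86% at the 75th percentile. The lower share was 4.67% with the pseudocount, and the higher share 6.71% with the mean over probe sets. The shares 2-fold lower and higher were 0.728% and 0.450% with the pseudocount, 11.0% and 8.99% with no filter, 0.0898% and 0.180% at the 75th percentile, 3.58% and 2.26% with the mean, and 0.360% and 0.221% at 3-fold. The 2-fold higher share was 0.663% with signals raised to the floor. No paired analysis was possible because each group holds 1 sample.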

Other observations

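In the lists furthest from the members, genes fell on both sides of 0. Genes that carry amino acid signals to mTORC1 had 11 of 19 below 0 and a median of -0.10. By the SD of 0.193, 7 were lower and 3 higher, against 27.5% and 22.5% of all genes past the filter. RRAGB, a Rag GTPase gene, read 157 in siIFITM1 cells and 62.7 in siLuc cells (log2 ratio 1.33). DEPDC5 and NPRL3, which belong to the GATOR1 complex that restrains mTORC1, read 88.4 in siIFITM1 cells and 169 in siLuc cells (-0.94) and 409 in siIFITM1 cells and 673 in siLuc cells (-0.72). RRAGB and DEPDC5 were dimmer genes read by 1 probe set past the filter. Genes of the translocon and of signal peptide removal had 9 of 17 below 0 and a median of -0.05, with SEC61A1 at -0.27, SSR2 at -0.16 and the dimmer gene SEC61A2 at 0.58. The cause of these differences was not tested.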
